A study of Mus musculus with 14 samples.

Results

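The heat shock chaperone genes followed here are *Hspa1a*, *Hspa1b*, *Dnajb1*, *Hsph1*, *Hspa8*, *Hsp90aa1*, *Hspb1*, *Hspe1*, *Hspd1*, and *Bag3*. They were taken by symbol from a table of read counts, and all 10 were found among its 24062 genes. Bulk RNA-seq was done on whole frozen tissue of 14 mice of a mixed strain background (C57BL/6, 129, and FVBN), none of them given a drug. The 3 controls (DRG3, DRG4, and DRG5) were dorsal root ganglia (DRGs) with attached nerves from Nf1fl/fl mice, which carry floxed *Nf1* alleles and no Cre. The plexiform neurofibromas (PNs) came from DhhCre;Nf1fl/fl mice, in which Cre under the *Dhh* promoter removes *Nf1* in the Schwann cell lineage and leaves the other cells of the tumor with intact alleles. By MRI at 7 and 9 months of age, 5 PNs were slow growing (a volume change under 5 mm3 in 2 months: 1079, 1198A, 1202, 1203, and 1206). The other 6 PNs were fast growing (growth over 35 mm3: 1053, 1071, 1179, 1191, 1214, and 1216). The age of the tissue is uncertain, since the Methods put it at 9 months and a legend at 7 months. Each library is 1 mouse.

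Heat shock chaperones bind unfolded proteins and help them to fold, to be refolded after stress, or to be degraded. HSP70 proteins work in cycles of ATP hydrolysis that J-domain proteins start and nucleotide exchange factors end. HSP90 finishes the folding of kinases and receptors, small heat shock proteins hold clients without ATP, and the HSP60 ring with its HSP10 lid folds proteins inside mitochondria. Heat shock factor 1 (HSF1) binds arrays of inverted heat shock elements and raises many of these genes within minutes of stress, while *Hspa8* and *Hsp90aa1* are also abundant in unstressed neurons and other cells.

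Some heat shock chaperone genes were lower in PNs than in control DRGs/nerves, and others were not called changed. *Hspa1a*, *Dnajb1*, and *Hspe1* fell in the 11 PNs, the call of *Hspa1a* resting on 1 control (DRG3), and none of the 10 genes rose. Skeletal muscle and adipocyte markers were lower in PNs too, and none of the 3 calls held with scores of these markers as covariates. *Hspa1a*, *Dnajb1*, and *Hspe1* then had log2 fold changes of -2.66, -0.91, and -0.82, beside -2.97, -1.46, and -1.08 without the scores. That fit called 214 genes lower in all, where the fit without the scores called 2180. In fast-growing PNs, *Hspd1* and *Hspa1b* fell as well, the call of *Hspa1b* being kept in 11 of 19 alternatives and lost without DRG3, among others. *Hspa8*, *Hsp90aa1*, *Hsph1*, and *Bag3* passed no test in any comparison, and their levels from library to library varied with those of sensory neuron markers, among other marker lists.

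Sequences are shown for the genes whose promoters bear on how their reads and levels can be read. *Hspa1a* (chr17:34969190-34972156, minus strand) and *Hspa1b* (chr17:34956436-34959238, minus strand) are near-identical neighbors that encode the stress-inducible HSP70. In RefSeq windows of 250 bases before a start to 50 after it (GRCm38.p6), their upstream parts were identical at 247 of 250 positions. The following stretches of 80 bases, at chr17:34972217-34972296 for *Hspa1a* and chr17:34959299-34959378 for *Hspa1b*, both read on the minus strand, were the same at all 80 positions. No GENCODE exon lies in either. Capitals mark the inverted pair of heat shock element cores in each.
Hspa1a: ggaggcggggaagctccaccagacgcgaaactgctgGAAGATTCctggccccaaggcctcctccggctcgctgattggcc
Hspa1b: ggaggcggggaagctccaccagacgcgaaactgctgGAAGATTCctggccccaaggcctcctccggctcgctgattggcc

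*Hspe1* (HSP10, chr1:55088132-55091307, plus strand) and *Hspd1* (HSP60, chr1:55077835-55088243, minus strand) lie head to head and share 112 exonic bases on opposite strands. Between their main starts, at chr1:55088053-55088082, is an array of 4 alternating cores in 18 bases, in capitals here as read on the *Hspe1* strand. It lies upstream of *Hspe1* and inside the first exon, a 5′ untranslated part, of a longer *Hspd1* transcript.
Hspe1/Hspd1: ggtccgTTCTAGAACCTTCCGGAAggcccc

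An element of 3 cores was searched on both strands as GAANNTTCNNGAA or TTCNNGAANNTTC, and one of 2 cores as GAANNTTC or TTCNNGAA, so that each match of 3 cores also holds matches of 2. In 32851 RefSeq promoter windows of 300 bases, 0.603% held 3 cores and 15.1% held 2. Counted per gene over any of its windows, it was 0.662% and 17% of 27025 genes. Windows were listed for 8 of the 10 genes, the others being *Hspa8* and *Hsp90aa1*. Of these 8, *Hspe1*, *Hspd1*, and *Hsph1* had 3 cores, *Hspa1a*, *Hspa1b*, *Hspb1*, and *Bag3* had 2, and *Dnajb1* had neither in its windows. A match describes letters only and was not tested as a binding site.

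The paralogs limit how their reads can be told apart. Of all 50-base windows of the longest *Hspa1a* transcript (2967 bases), 58.8% also occur in *Hspa1b*, and 62.3% of those of *Hspa1b* (2803 bases) occur in *Hspa1a*. How reads with several matches, or from opposite strands, were counted is not given in the sources used here. The division of counts between *Hspa1a* and *Hspa1b*, and between the overlapping ends of *Hspe1* and *Hspd1*, is therefore uncertain. In the same annotation, processed pseudogenes hold 45.3% of the windows of *Hspa8* (*Gm15459*), 51.5% of *Hsp90aa1* (*Gm12346*), 51.6% of *Hspb1* (*Hsp25-ps1*), and 42.8% of *Hspd1* (*Hspd1-ps3*). *Hsph1* and *Bag3* share 0 windows with another gene.

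The libraries held 9596773 to 17594164 counts on genes, so that 3 counts correspond to 0.167 to 0.313 CPM (counts scaled to library size, TMM) and every member was above this floor in every library. The mean ± SD of *Nf1* was 170 ± 51.5 CPM over 3 controls and 249 ± 22.8 over 11 PNs, and its log2 fold change was 0.54 (adjusted p = 0.0215, edgeR's quasi-likelihood F test after Benjamini-Hochberg adjustment). *Nf1* was counted over all its exons and all cells, so it does not check the genotype labels, on which every direction here rests. Schwann cell markers (5 of 11 called higher in PNs and 0 lower) were present in all libraries and summed to 4674 to 14088 CPM in controls, 8822 to 22587 in slow-growing PNs, and 8251 to 12642 in fast-growing PNs. Fibroblast markers (0 of 6 called in PNs in either direction by edgeR) summed to 1898 to 3681 CPM in controls, 1253 to 5566 in slow-growing PNs, and 5489 to 10354 in fast-growing PNs, the last without overlap with controls. Satellite glia markers were higher in PNs for 2 of 5, while neutrophil markers were lower for 4 of 7, and endothelial and pericyte markers for 2 of 6 each. Skeletal muscle markers (9 of 15 called lower in PNs and 0 higher) summed to 11522 to 40895 CPM in controls, 79.9 to 13256 in slow-growing PNs, and 402 to 8090 in fast-growing PNs. Adipocyte markers (4 of 12 lower and 0 higher) summed to 4001 to 5776 CPM in controls, 17.3 to 3145 in slow-growing PNs, and 10.5 to 275 in fast-growing PNs. Immediate early genes, which tissue handling can raise, were lower in PNs for 7 of 10, with sums of 536 to 934 CPM in controls and 140 to 459 in PNs. Sensory neuron markers (0 of 15 called in either direction by edgeR) summed to 1959 to 6996 CPM in controls, 3190 to 17049 in slow-growing PNs, and 55.0 to 9880 in fast-growing PNs. None of these lists had a gene at 0 counts in every control or in every PN.

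Control DRG3 and fast-growing PN 1191 lay at the ends of the range for many of the genes. DRG3 was the highest of the 3 controls for 9 of the 10 genes (all but *Hspe1*) and the highest of all 14 libraries for *Hspa1a*, *Hspa1b*, *Dnajb1*, *Hspb1*, and *Hspd1*. Its sensory neuron marker sum was also the highest of the controls (6996 CPM, beside 3260 in DRG4 and 1959 in DRG5), as was its Schwann cell sum (14088, beside 5177 and 4674). It was the lowest control in skeletal muscle markers (11522, beside 25936 and 40895), macrophage markers (331, beside 1397 and 1293), and lymphocyte markers (5.92, beside 241 and 217). The part of this tissue makeup in its levels of the 10 genes was not tested. PN 1191 was the lowest of all 14 libraries for all 10 genes. Its sensory neuron markers summed to 55.0 CPM, where the next lowest library had 1959, and it was the lowest library for each of the 15 neuron markers, none of them at 0 counts. Dixon's test of the highest and lowest library, run for each gene in the slow-growing and in the fast-growing PNs, set no library apart in any of these 20 groups. The 3 controls were too few for this test.

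**Figure D1:**
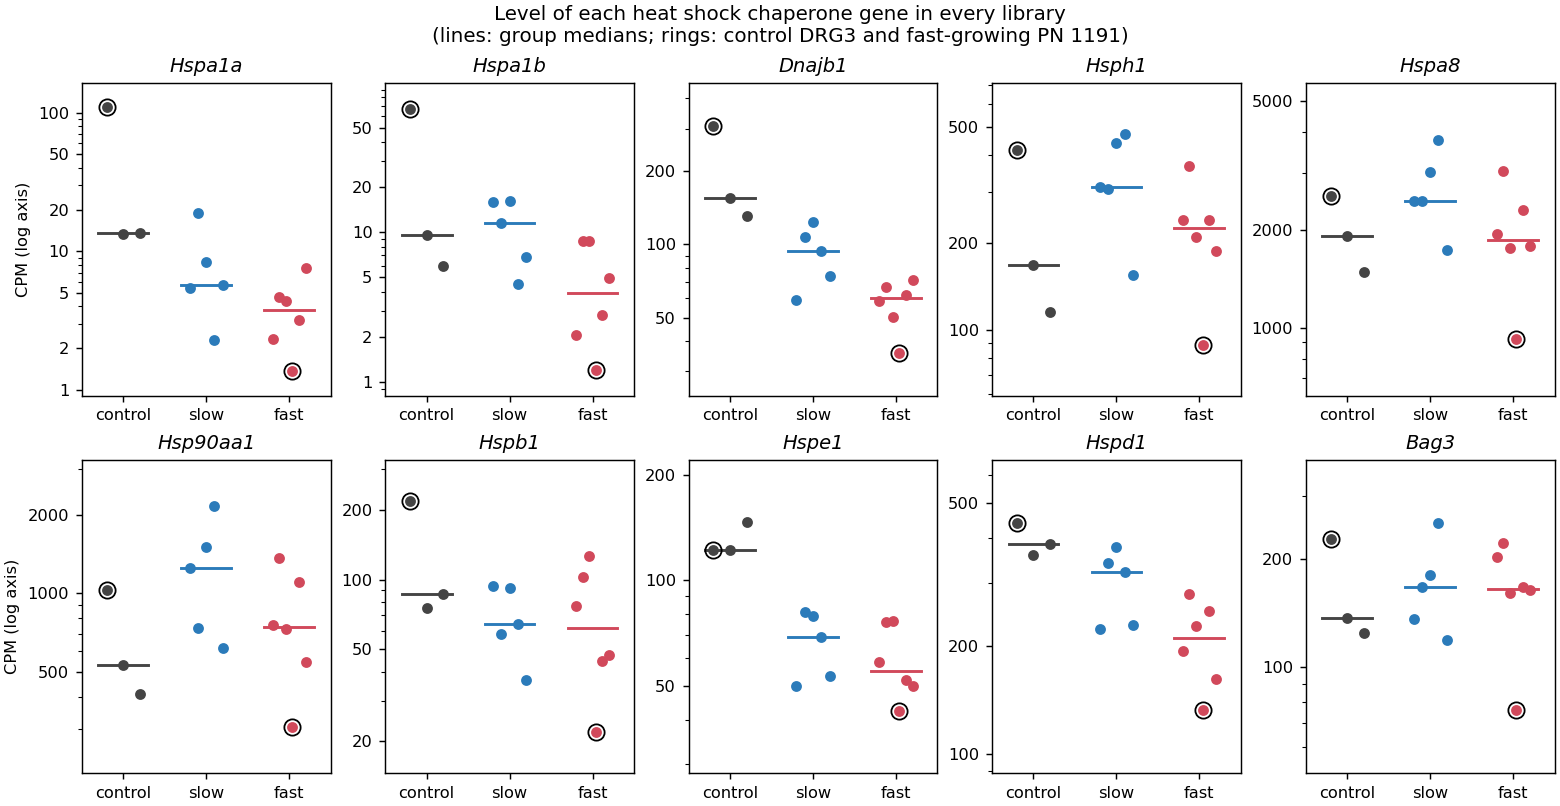
Level of each of the 10 genes in CPM on a log axis (vertical) in control, slow-growing, and fast-growing libraries (horizontal), 1 point per mouse, with group medians as lines and rings around control DRG3 and fast-growing PN 1191. All 11 PNs lie below the 3 controls for *Dnajb1* and *Hspe1*, and PN 1191 is the lowest point in all 10 panels.

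Per kilobase of the longest transcript, the constitutive HSP70 *Hspa8* was the highest member, with a mean ± SD of 626 ± 168 CPM per kb over 3 controls and 726 ± 250 over 11 PNs. *Hsp90aa1* followed with 201 ± 101 in controls and 307 ± 163 in PNs. *Hspd1* came next in controls, at 163 ± 17.4 CPM per kb, and its PN level was 103 ± 31.1. Its SD in controls overlaps those of *Hsp90aa1*, *Hspb1* (136 ± 85.6), and *Hspe1* (135 ± 15), so these neighbors in the order do not differ beyond their spread. The inducible HSP70 genes were the lowest, with 15.3 ± 18.6 CPM per kb for *Hspa1a* and 9.73 ± 12.1 for *Hspa1b* in controls, and 1.97 ± 1.63 and 2.71 ± 1.87 in PNs.

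The comparison of all PNs with controls asks which of these genes differ in tumor tissue. It called 3 of the 10 genes, all lower, where 13.4% of the 16283 genes tested were called lower and 12.9% higher. These shares stand for 2180 genes lower and 2103 higher. Without DRG3 the numbers were 2162 and 2102, without DRG4 1454 and 1022, and without DRG5 1145 and 916. The members' median log2 fold change was -0.78, and that of all genes tested was 0.10. In 2 of the 10 genes every PN lay below every control, which held for 9.13% of all genes. In whole tissue, fewer cells of a type and less RNA per cell cannot be told apart, for these and all later results.

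*Hspa1a*, the main stress-inducible HSP70, was at 109 CPM in DRG3, 13.4 in DRG4, and 13.5 in DRG5. The slow-growing PNs had 5.47 (1079), 18.9 (1198A), 8.37 (1202), 2.29 (1203), and 5.69 (1206) CPM. The fast-growing PNs ran from 1.36 (1191) over a median of 3.79 to 7.53 (1216) CPM. All 6 fast-growing and 4 of the 5 slow-growing PNs were below the lowest control, and slow-growing 1198A was above DRG4 and DRG5. The fitted log2 fold change for all PNs was -2.97 ± 0.63 (SE; adjusted p = 0.00352, edgeR's quasi-likelihood F test after Benjamini-Hochberg adjustment). This size rests on DRG3, whose level was 8.11 times the mean of the other 2 controls. Without DRG3 it was -1.22 (adjusted p = 0.182), and *Hspa1a* was no longer called. The PN median was 0.35 times the mean of DRG4 and DRG5.

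*Hspa1b*, its paralog, was at 66.3 CPM in DRG3, 9.62 in DRG4, and 5.94 in DRG5. Slow-growing PNs had 15.9, 11.5, 16.3, 4.49, and 6.84 CPM in the order 1079, 1198A, 1202, 1203, and 1206, and fast-growing PNs 1.21 (1191) to 8.80 (1071) with a median of 3.90. The groups overlapped, and 3 slow-growing PNs were above DRG4 and DRG5. The log2 fold change for all PNs was -1.86 ± 0.68 (SE; adjusted p = 0.0572, edgeR), and -0.05 without DRG3 (adjusted p = 0.968). With the counts of both paralogs summed, the log2 fold change was -2.45 (adjusted p = 0.0111, edgeR). DRG3 was the highest library for both paralogs, and the summed counts were not fitted without it.

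*Dnajb1*, an HSP40 whose J-domain starts the ATPase cycle of HSP70, was at 308, 155, and 131 CPM in DRG3, DRG4, and DRG5. Slow-growing PNs had 59.0 (1079), 107 (1198A), 124 (1202), 94.1 (1203), and 74.0 (1206) CPM, and fast-growing PNs 35.7 (1191) to 71.5 (1216) with a median of 60.1. No PN reached the lowest control. The log2 fold change for all PNs was -1.46 ± 0.30 (SE; adjusted p = 0.00287, edgeR). It was called in each fit that left out 1 library, and was -0.99 without DRG3 (adjusted p = 0.0388).

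*Hspe1*, the HSP10 lid of the mitochondrial chaperonin, was at 122 CPM in DRG3 and DRG4 and 147 in DRG5. Slow-growing PNs had 50 (1079), 81.1 (1198A), 79.3 (1202), 68.9 (1203), and 53.3 (1206) CPM, and fast-growing PNs 42.3 (1191) to 76.4 (1179) with a median of 55.1. The groups did not overlap. The log2 fold change was -1.08 ± 0.18 (SE; adjusted p = 7.61e-04, edgeR), a 2.11-fold lower level, and between -1.15 and -0.98 when each library was left out in turn, with a call in all 14 fits. With a trend over transcript length and GC content removed it was -0.59 (adjusted p = 0.0159, edgeR). DRG3 was not high for this gene.

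*Hspd1*, the HSP60 ring that HSP10 closes, was at 440, 358, and 385 CPM in DRG3, DRG4, and DRG5. Slow-growing PNs had 224 (1079), 342 (1198A), 377 (1202), 323 (1203), and 229 (1206) CPM, and fast-growing PNs 133 (1191) to 280 (1071) with a median of 210. Of the 11 PNs, 10 were below every control, the exception being slow-growing 1202. The log2 fold change was -0.68 ± 0.25 (SE; adjusted p = 0.0571, edgeR). Fits on other scalings or tests moved *Hspd1* across the threshold, with -0.73 (adjusted p = 0.0239) by DESeq2 and -0.74 (adjusted p = 0.0099, edgeR) with a sensory neuron score as a covariate.

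*Hspb1*, the small heat shock protein HSP27 (HSP25 in mice), was at 219 CPM in DRG3, 75.7 in DRG4, and 86.4 in DRG5. PNs ranged from 21.9 (1191) to 126 (1179) CPM with a median of 64.0, and overlapped the controls. Its log2 fold change was -0.88 ± 0.42 (SE; adjusted p = 0.134, edgeR) and -0.24 without DRG3 (adjusted p = 0.730). With the length and GC trend removed it was -0.26.

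The remaining 4 genes had fitted changes above 0 and passed no test. *Hsp90aa1*, the inducible cytosolic HSP90, was at 1033, 531, and 411 CPM in DRG3, DRG4, and DRG5, and at 306 (1191) to 2164 (1203) in PNs with a median of 754. Its log2 fold change was 0.60 ± 0.48 (SE; adjusted p = 0.385, edgeR), and 10 of 11 PNs were above both DRG4 and DRG5. The value was 1.08 without DRG3 and 0.35 without DRG5. *Hsph1*, an HSP110 that serves as a nucleotide exchange factor of HSP70, was at 416, 167, and 115 CPM in the same controls and 89.0 to 473 in PNs. Its log2 fold change was 0.22 ± 0.45 (SE; adjusted p = 0.746, edgeR) and was -0.10 without DRG5 and 0.95 without DRG3. Control DRG3 was above most PNs for *Hsph1*, and the other controls were below 9 of the 11.

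*Hspa8*, the constitutive HSP70, was at 2538, 1914, and 1481 CPM in controls and 924 (1191) to 3785 (1203) in PNs. Its log2 fold change was 0.20 ± 0.33 (SE; adjusted p = 0.690, edgeR). *Bag3*, a co-chaperone that links HSP70 to selective autophagy, was at 228, 137, and 125 CPM in controls and 76.1 (1191) to 252 (1203) in PNs, with a log2 fold change of 0.03 ± 0.28 (SE; adjusted p = 0.956, edgeR). The sign of the *Bag3* value turned under several alternatives. For these 4 genes the controls and PNs overlapped.

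Muscle and fat markers moved with the groups, and no muscle-free control was among the libraries. With skeletal muscle and adipocyte scores as covariates in the comparison of PNs with controls, none of the 10 genes was called. In that fit *Hspa1a* was -2.66 (adjusted p = 0.196), *Dnajb1* -0.91 (adjusted p = 0.351), *Hspe1* -0.82 (adjusted p = 0.233), and *Hspd1* -0.01 (adjusted p = 0.989, edgeR). It called 269 genes higher and 214 lower in all, beside 2103 and 2180 without the scores. In the comparisons of slow- or fast-growing PNs with controls and of both PN groups, the fit with these scores called 0 genes of the whole table, so it says nothing of the members there. Muscle marker sums overlapped between the groups, with 13256 CPM in 1079 and 12653 in 1202 beside 11522 in DRG3. Adipocyte sums did not overlap. The part of fat tissue in the differences cannot be told apart from that of the groups, and that of muscle alone was not tested. The part of tissue handling was not tested.

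Either PN group was also set against the same 3 controls, so these comparisons are not independent of each other or of the one above. In slow-growing PNs, 1 of the 10 genes was called lower (*Hspe1*, -1.03 ± 0.20, SE; adjusted p = 0.0139, edgeR) and 0 higher, beside 7.13% and 4.12% of 15714 genes. These shares stand for 1121 genes lower and 648 higher. Without DRG3 the numbers were 1539 and 915, without DRG4 475 and 210, and without DRG5 389 and 210. The *Hspe1* call was lost without DRG4 (adjusted p = 0.0527), without DRG5 (adjusted p = 0.0777), or with the length and GC trend removed (-0.55, adjusted p = 0.0837). With single libraries left out its log2 fold change stayed between -1.11 and -0.92. *Dnajb1* was at -1.17 ± 0.32 (SE; adjusted p = 0.0519, edgeR), and *Hspa1a* at -2.51 ± 0.82 (SE; adjusted p = 0.0852, edgeR), which was -0.79 without DRG3 (adjusted p = 0.414). All slow-growing PNs were below all controls for 2 of the 10 genes, *Dnajb1* and *Hspe1*, as for 12.0% of all genes.

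In fast-growing PNs, 5 of the 10 genes were called lower and 0 higher, beside 16.7% and 14.8% of 16037 genes. For *Hspa1a*, *Dnajb1*, *Hspe1*, and *Hspd1* every fast-growing PN was below every control, as for 14.9% of all genes. *Hspa1a* was at -3.57 ± 0.70 (SE; adjusted p = 0.00416, edgeR), and at -1.87 without DRG3 (adjusted p = 0.0205). *Dnajb1* was at -1.84 ± 0.27 (SE; adjusted p = 8.76e-04), 3.59-fold lower. The mitochondrial pair was lower by similar sizes, with -1.22 ± 0.19 for *Hspe1* (adjusted p = 0.00142; -0.72 with the length and GC trend removed) and -1.0 ± 0.21 for *Hspd1* (adjusted p = 0.00583, edgeR). *Hspa1b* was at -2.56 ± 0.79 (SE; adjusted p = 0.0334, edgeR), and at -0.80 without DRG3 (adjusted p = 0.411). Its call was also lost without 1053, 1214, or 1216 (adjusted p = 0.0657, 0.0653, and 0.0672). Of 19 alternatives in all, 11 called it.

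**Figure D2:**
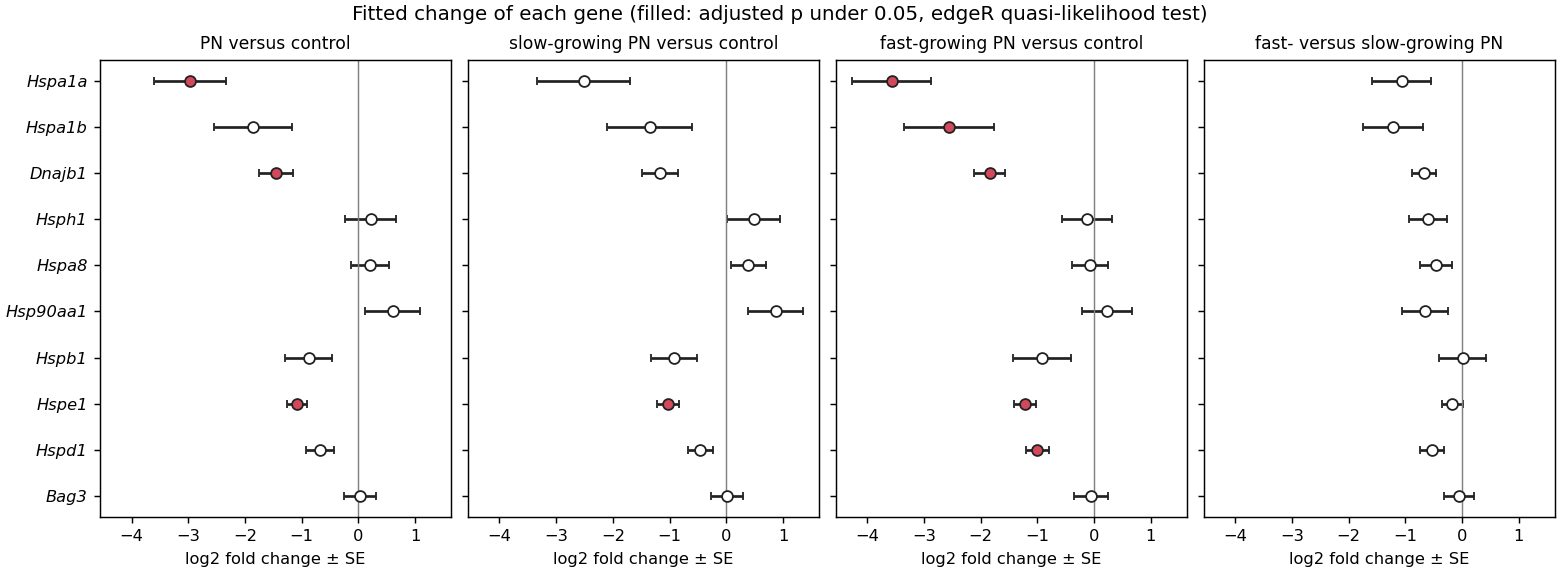
Fitted log2 fold change (horizontal, bars are SE) of each of the 10 genes (vertical) in 4 comparisons, with filled points for an adjusted p under 0.05. The filled points are all below 0 and number 3 for all PNs, 1 for slow-growing, and 5 for fast-growing PNs versus controls, with 0 between fast- and slow-growing PNs.

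Fast- and slow-growing PNs were compared directly to ask whether the genes differ with tumor growth. None of the 10 genes was called by edgeR's quasi-likelihood test, where 1.27% of 15465 genes were called in either direction. At an unadjusted p under 0.05 there were 3 genes, all lower in fast-growing PNs, beside 20.4% of all genes in either direction and 8.51% lower. DESeq2, which called many more genes of the whole table lower than edgeR did (counts given below), called 1 of the 3. It was *Dnajb1*, with a log2 fold change of -0.67 ± 0.21 (SE; adjusted p = 0.108, edgeR) and an adjusted p of 0.0311 by DESeq2. *Hspd1* was at -0.53 ± 0.21 (SE; adjusted p = 0.191, edgeR) and *Hspa1b* at -1.21 ± 0.53 (SE; adjusted p = 0.223, edgeR). The groups overlapped for all 10 genes, while 0.905% of all genes had every fast-growing PN below every slow-growing PN. Fitted values were below 0 for 9 of the 10 genes, *Hspb1* being at 0.01 ± 0.41. They were also below 0 for 65 of 95 genes in the lists of related genes, and the median of all genes tested was -0.03. The 10 genes are correlated across libraries, so their signs are not independent of each other. PN 1191 is among the fast-growing libraries, and without it the values for *Hspa8*, *Hsp90aa1*, and *Hsph1* went from -0.46, -0.65, and -0.60 to -0.32, -0.48, and -0.44.

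The genes were also compared with each other across libraries, in 2 groups formed after their values had been seen. *Hsph1*, *Hspa8*, *Hsp90aa1*, and *Bag3* varied together, with Pearson's r of log2(CPM + 1) between 0.79 and 0.98 for their 6 pairs in the 11 PNs. *Hspa1a*, *Dnajb1*, *Hspe1*, and *Hspd1* had r between 0.50 and 0.84 with each other, with a median of 0.66. Pairs between the groups had r between 0.09 and 0.86 with a median of 0.65 in the same PNs, close to that within the second group. Over all 14 libraries, controls included, the medians were 0.83 within the second group and 0.26 between the groups. Library 1191 was low in all of these genes. In the other 10 PNs the ranges were 0.60 to 0.96 within the first group, 0.30 to 0.75 within the second (median 0.50), and -0.39 to 0.76 between them (median 0.40). All points share library depth and tissue makeup, so these values only describe the libraries.

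*Hsph1*, *Hspa8*, *Hsp90aa1*, and *Bag3* varied with the sensory neuron markers. In the 11 PNs, r with the mean log2(CPM + 1) of the 15 markers was 0.90 for *Hspa8*, 0.89 for *Bag3*, 0.87 for *Hsp90aa1*, and 0.86 for *Hsph1*, with Spearman's rho of 0.81, 0.75, 0.92, and 0.81. Without 1191 and 1203, the libraries farthest from the median, r was 0.74, 0.54, 0.88, and 0.66 (n = 9). Slow-growing 1203 had the highest neuron marker sum (17049 CPM) and the highest level of all 4 genes. For *Hspe1*, *Dnajb1*, *Hspa1a*, *Hspd1*, and *Hspb1*, r was 0.54, 0.63, 0.26, 0.70, and 0.68 in 11 PNs and 0.10, 0.02, -0.44, 0.33, and 0.37 in those 9. The link was not particular to neuron markers. With skeletal muscle markers, r in the 11 PNs was 0.67 for *Hsp90aa1*, 0.60 for *Hsph1*, 0.53 for *Hspa8*, and 0.34 for *Bag3*, and 0.79, 0.74, 0.68, and 0.41 without 1191. Without 1202 and 1079, the libraries farthest from the median of the muscle score, it was 0.60, 0.49, 0.47, and 0.51 (n = 9). With Schwann cell markers it was between -0.12 and 0.06 for these 4 genes in the 11 PNs, between -0.67 and -0.33 without 1191, and between 0.52 and 0.77 without 1203 and 1206, the libraries farthest from the median of that score (n = 9). For the called *Hspa1a*, *Dnajb1*, and *Hspe1*, r in the 11 PNs was -0.18, 0.17, and 0.21 with muscle markers. With adipocyte markers it was 0.52, 0.46, and 0.13. With the neuron score as a covariate, 6 of the 10 genes were called lower in PNs versus controls, *Hspa1b*, *Hspd1*, and *Hspb1* joining the 3 above. That fit called 2687 of 16283 genes lower, where the fit without the score called 2180. In it, *Hspa8*, *Hsp90aa1*, *Hsph1*, and *Bag3* were again not called.

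**Figure D3:**
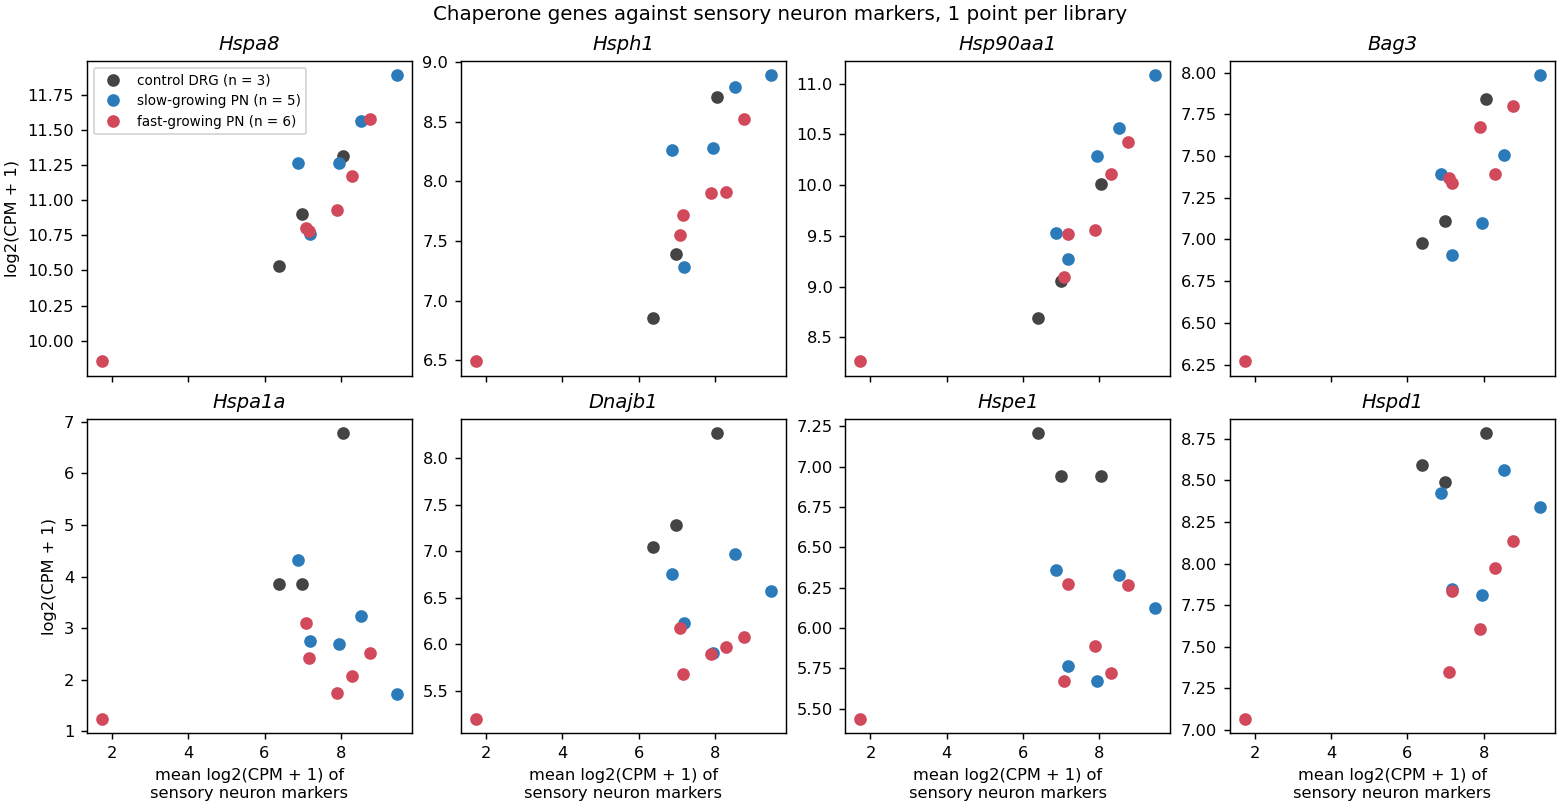
Level of 8 of the genes, log2(CPM + 1) (vertical), against the mean log2(CPM + 1) of 15 sensory neuron markers (horizontal), 1 point per library and colors for the 3 groups. The upper 4 genes lie along the marker score in controls and PNs alike, with PN 1191 far to the left, whereas for *Hspe1* the 3 controls lie above all PNs at similar scores.

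Among 10135 genes outside the lists with a mean of at least 10 CPM, those most like the mean z-score of *Hspa1a*, *Dnajb1*, and *Hspe1* over the 11 PNs were *Mrpl34* (r = 0.92), which encodes a mitochondrial ribosomal protein, *Ndufa6* (r = 0.91), a subunit of respiratory complex I, and *2410015M20Rik* (r = 0.91). These r values were picked as the highest of 10135 over only 11 libraries. How high r would reach among that many unrelated genes was not computed. The PN that was lowest for every member was among the 11, and r without it was not computed either. The ranking therefore only describes these libraries. *Mrpl34* was at 53.1 CPM in controls and 11.4 in PNs. *Ndufa6* was at 68.5 and 17.3 CPM, and *2410015M20Rik* at 36 and 9.19. All 3 were called lower in PNs, with log2 fold changes of -2.24, -2.0, and -1.99 (adjusted p = 6.31e-06, 6.94e-06, and 1.85e-05, edgeR).

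RNA of the heat shock factors was also read, while the activity of their proteins was not measured and its part in the members' levels was not tested. Of 5 genes, 4 of them heat shock factors and the other the HSF1-binding *Hsbp1*, 1 rose in PNs and 0 fell. *Hsf1* had a mean ± SD of 39.6 ± 3.22 CPM over 3 controls and 51.6 ± 4.61 over 11 PNs, and rose by a log2 fold change of 0.36 ± 0.11 (SE; adjusted p = 0.0229, edgeR). Against the same controls it was not called in slow-growing PNs alone (0.36 ± 0.14, adjusted p = 0.121) or in fast-growing PNs alone (0.28 ± 0.12, adjusted p = 0.118, edgeR). *Hsf2* (0.30 ± 0.21, adjusted p = 0.307) and *Hsbp1*, whose product binds and restrains HSF1 (-0.15 ± 0.17, adjusted p = 0.534, edgeR), were not called. Of 17 other HSF1 target genes, 0 rose and 2 fell in PNs, with a median of -0.05, where 12.9% of all genes were called higher and 13.4% lower. *Dedd2* was among those that fell (-1.02 ± 0.24, adjusted p = 0.00646, edgeR). In slow-growing PNs 0 of the 17 rose and 1 fell, with a median of 0.15, beside 4.12% and 7.13% of all genes. In fast-growing PNs, 5 of the 17 fell and 1 rose, beside 16.7% and 14.8% of all genes. The gene that rose was the collagen chaperone *Serpinh1* (1.08 ± 0.36, adjusted p = 0.0463, edgeR). Fibroblast markers were also higher in all fast-growing PNs than in all controls by their sum, and their part in this value was not tested.

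Chaperones of the mitochondrion were lower along with *Hspe1*. Of 10 genes of mitochondrial protein quality control, 9 fell in PNs and 0 rose, beside 13.4% and 12.9% of all genes, with a median log2 fold change of -1.05 beside 0.10 for all genes. *Grpel1*, the nucleotide exchange factor of mitochondrial HSP70, went from 74.4 ± 10.5 to 22.8 ± 4.11 CPM (-1.73 ± 0.15, adjusted p = 4.40e-06, edgeR). *Dnaja3*, its J-domain partner, went from 76.7 ± 8.65 to 29.9 ± 5.24 CPM (-1.38 ± 0.16, adjusted p = 3.19e-05, edgeR). The mitochondrial HSP70 itself, *Hspa9* (-1.16 ± 0.23, adjusted p = 0.00201), the HSP90 *Trap1* (-1.0 ± 0.13, adjusted p = 8.93e-05), and the protease unfoldase *Clpx* (-1.09 ± 0.13, adjusted p = 5.32e-05, edgeR) also fell. In slow-growing PNs 7 of these 10 genes fell, beside 7.13% of all genes, and in fast-growing PNs 9, beside 16.7%. The genes of this and the other lists were read only from fits without the length and GC correction. For *Hspe1* in all PNs versus controls, that correction moved the log2 fold change from -1.08 to -0.59. Muscle and brown fat are rich in mitochondria, and the markers of muscle and fat moved with the groups as given above; their part in these differences was not tested.

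The other families are to be read beside the 12.9% of all genes called higher and 13.4% called lower in PNs. Both shares were smaller without DRG4 or without DRG5, as given above. Among 11 other HSP70 and HSP110 genes, 4 rose and 1 (*Hspa9*) fell. *Hspa12a*, an atypical HSP70, rose from 314 ± 160 to 969 ± 147 CPM (1.61 ± 0.26, adjusted p = 5.23e-04, edgeR). *Hspa13*, a microsomal HSP70 (0.92 ± 0.17, adjusted p = 0.00121), and *Hspa2* (1.01 ± 0.21, adjusted p = 0.00329, edgeR) also rose. Of 15 J-domain genes tested, 2 fell, a share near that of all genes, and 0 rose, *Dnaja3* and *Dnajb12* (-0.38 ± 0.12, adjusted p = 0.0366, edgeR). Of 9 nucleotide exchange factors and HSP70 regulators, 2 fell and 0 rose, *Bag1* (-0.63 ± 0.18, adjusted p = 0.0170) and *Sil1* (-0.59 ± 0.20, adjusted p = 0.0454, edgeR).

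Of 14 HSP90 paralogs and co-chaperones, 4 fell and 0 rose, again beside 13.4% and 12.9% of all genes for this and the next lists. Besides *Trap1* these were the kinase co-chaperone *Cdc37* (-0.55 ± 0.12, adjusted p = 0.00445), the cyclophilin *Ppid* (-0.53 ± 0.12, adjusted p = 0.00664), and *Unc45b*, a myosin chaperone of striated muscle (-2.41 ± 0.61, adjusted p = 0.0100, edgeR). Of 8 other small heat shock proteins, 5 could be tested. *Hspb6* (395 ± 294 to 36.3 ± 36 CPM; -3.47 ± 0.69, adjusted p = 0.00219) and *Hspb7* (-2.10 ± 0.71, adjusted p = 0.0420, edgeR) fell, and both are known from muscle and heart. Of 13 TRiC/CCT and prefoldin genes, 3 fell and 0 rose, all of them prefoldin subunits: *Pfdn5* (-0.64 ± 0.14, adjusted p = 0.0043), *Pfdn1* (-0.87 ± 0.23, adjusted p = 0.0121), and *Pfdn2* (-0.72 ± 0.22, adjusted p = 0.0274, edgeR). No subunit of the cytosolic TRiC/CCT ring was called.

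Of 18 genes for chaperones of the endoplasmic reticulum and the unfolded protein response, 3 rose, 1 fell, and 14 were not called in PNs, a share of higher calls near the 12.9% of all genes. In slow-growing PNs edgeR called 0 of the 18, beside 4.12% of all genes called higher and 7.13% lower. An unadjusted p under 0.05 was found for 4 of them. The share of all genes at that threshold was not computed for this comparison, so the 4 cannot be read as a change. The glycoprotein folding factors *Pdia3* (0.77 ± 0.21, adjusted p = 0.0139) and *Canx* (0.49 ± 0.14, adjusted p = 0.0228) and the HSP70 relative *Hyou1* (0.71 ± 0.22, adjusted p = 0.0261, edgeR) rose. *Herpud1*, which serves the degradation of unfolded proteins, fell (-0.82 ± 0.23, adjusted p = 0.0166, edgeR). Over all 97 tested genes of the lists, 7 rose and 23 fell in PNs, in shares to be read beside the 12.9% and 13.4% of all genes. Between fast- and slow-growing PNs, edgeR's quasi-likelihood test called 0 of 95 list genes. An unadjusted p under 0.05 was found for 18 of the 95, a share near the 20.4% of all genes.

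**Figure D4:**
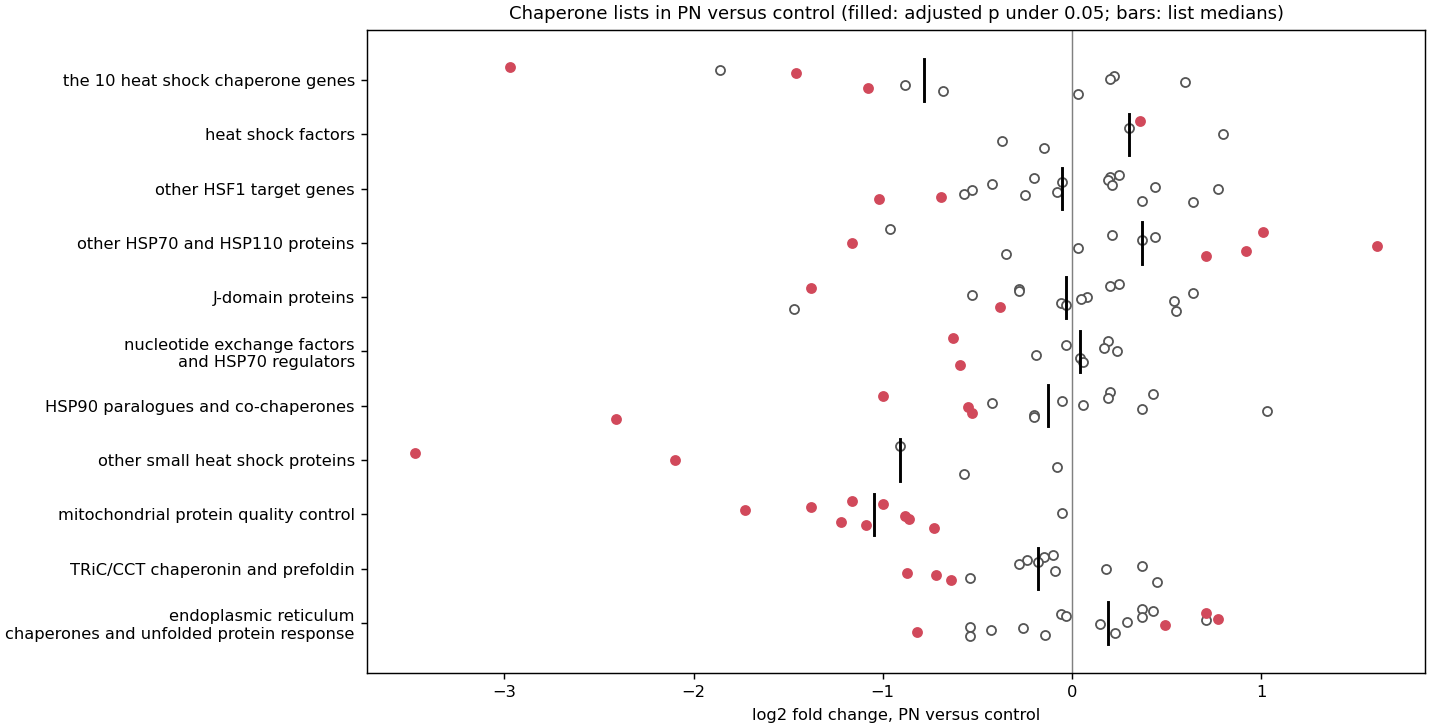
Log2 fold change in PNs versus controls (horizontal) of each tested gene in the set of 10 and in 10 lists of related genes (vertical), with filled points for an adjusted p under 0.05 and bars for list medians. The mitochondrial list lies below 0 throughout, with 9 of its 10 points filled, and the endoplasmic reticulum list spreads to both sides.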

How the data were processed

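Total RNA was amplified by the authors (Ovation RNA-Seq System v2) and reads were aligned to mm10; the submitters' processing notes name CASAVA 1.4, FastQC 0.11.0, TopHat2 2.0.9, featureCounts 1.5.2, and edgeR 3.16.5. The authors deposited counts, whole and not normalized, of 24062 genes in 14 libraries. The authors also deposited TMM-normalized log2 values for 16382 genes, used only in an alternative, and all columns were read as log2 values by the authors' naming. Single-cell and human samples were not analysed here. Sex and batch per library are not given in the sources used here, and a difference in how control and PN tissue was prepared cannot be told apart from the groups.

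Groups came from the sample labels. The 10 genes and all lists were chosen with earlier results of these data known. Levels are CPM after TMM scaling. Each comparison used only its own libraries in edgeR 4.0.16 (R 4.3.3): filterByExpr, TMM, the quasi-likelihood test on counts, and Benjamini-Hochberg adjustment over all genes tested, with a call at an adjusted p under 0.05. The SE is the size of the log2 fold change divided by the square root of F. Marker scores are means of log2(CPM + 1). Named genes were the 10, *Nf1*, *Hsf1*, *Hsf2*, *Hsbp1*, up to 4 called genes of each list with the lowest p, and the 3 genes most like the called members; *Serpinh1* was added after its value was seen. One gene that the rule names is not reported here. Positions, transcript lengths, and shared 50-base windows came from GENCODE vM21, where 22758 genes were found by symbol and 906 through older symbols; promoter windows came from RefSeq (GRCm38.p6).

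Alternatives used DESeq2 1.42.0, limma 3.58.1, other scaling, no filter, a joint fit, marker covariates, a length and GC correction, and each library left out; leaving out DRG3 and 1191 together was chosen after seeing the data. On simulated counts with 200 genes changed by a log2 of 2, the test recovered 67% of them for PNs versus controls (16099 genes), 47% for slow-growing (15470) and 74% for fast-growing PNs (15868) versus controls, and 85% for the comparison of fast with slow growth (15285). Reads amplified by PCR are not independent molecules, so depth floors cover counting error only. Figures were drawn with matplotlib 3.10.9.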

Additional observations from a re-analysis of the deposited data

How the results depend on the processing

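Against the 3 genes called in PNs versus controls, 5 were called with all 14 libraries in one fit, 6 with a sensory neuron score as a covariate, and 0 with skeletal muscle and adipocyte scores, and 2 to 5 when each library was left out. Of all genes, 2180 were called lower in the fit as reported, and 2486, 2687, and 214 in these 3. Without DRG3, DRG4, or DRG5, 2162, 1454, and 1145 genes were called lower in PNs. Against 1 in slow-growing PNs versus controls, the counts were 2 with DESeq2, 3 in the joint fit, 2 with the neuron score, and 0 with the length and GC trend removed, beside 1920, 1688, 1107, and 697 genes called lower in all (1121 as reported), and 0 to 1 with libraries left out. Without DRG3, DRG4, or DRG5, 1539, 475, and 389 genes were called lower in slow-growing PNs. Against 5 members in fast-growing PNs versus controls, the number called was 4 to 5 with libraries left out. With the muscle and adipocyte scores it was 0 in slow- and 0 in fast-growing PNs versus controls, where no gene of the table was called. Between fast- and slow-growing PNs, DESeq2 called 1 and the other settings 0, beside 726 genes called lower by DESeq2 and 72 as reported. DESeq2 gave *Hspa1a* no adjusted p against controls. Causes were not tested.

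Signs turned only where the gene had no call in that comparison. *Bag3* in PNs versus controls was -0.02 with median-of-ratios scaling, -0.02 with DESeq2, -0.05 with limma on the deposited log2 values, -0.08 with muscle and adipocyte scores, -0.04 with the neuron score, and -0.13 to 0.35 with libraries left out. In slow-growing PNs it was -0.01, -0.40, and -0.26 under the same limma and covariate fits and -0.15 to 0.32 with libraries left out. In fast-growing PNs it was 0.00 in the joint fit, 0.17 with the length and GC trend removed, 0.39 without DRG3 and 1191, and -0.16 to 0.24 with single libraries left out. Between fast- and slow-growing PNs it was 0.16 with the neuron score and -0.14 to 0.13 with libraries left out. *Hsph1* ran from -0.10 to 0.95 in PNs and from -0.41 to 0.56 in fast-growing PNs with libraries left out, and was 0.72 without DRG3 and 1191. *Hspa8* in fast-growing PNs ran from -0.24 to 0.11, and was 0.25 without both. *Hspa1b* in slow-growing PNs ran from -1.82 to 0.44, the latter without DRG3. *Hspb1* between fast- and slow-growing PNs was -0.13 with limma-voom, -0.14 with limma on the log2 values, -0.19 with muscle and adipocyte scores, -0.03 with the length and GC trend removed, and -0.26 to 0.20 with libraries left out. *Hspa1a* and *Hspa1b* fell to 18 and 16 counts in 1191, the other 8 genes had at least 290 counts in every library, and the part of depth was not tested.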

Other observations

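The balance of the inducible HSP70 paralogs differed from library to library. *Hspa1a* counts were 1.65, 1.39, and 2.28 times the *Hspa1b* counts in DRG3, DRG4, and DRG5. In slow-growing PNs the ratio was 0.344 (1079), 1.64 (1198A), 0.512 (1202), 0.510 (1203), and 0.831 (1206), and in fast-growing PNs it ran from 0.50 to 1.51 with a median of 1.13. All 3 controls, 1 of 5 slow-growing, and 4 of 6 fast-growing PNs had more counts on *Hspa1a*. This was seen in the data and not tested, and the share of reads that fit both genes limits it.

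Immediate early genes, a list of 10 that handling can raise, ran against several members within the 11 PNs. Pearson's r of the list's mean log2(CPM + 1) was -0.77 with *Hsp90aa1*, -0.69 with *Hspa8*, -0.66 with *Hspd1*, -0.61 with *Hsph1*, and -0.56 with *Dnajb1*, with Spearman's rho of -0.68, -0.60, -0.70, -0.65, and -0.61. For *Hspa1a*, *Hspb1*, and *Hspe1* r was 0.00, -0.15, and -0.29. Over all 14 libraries, controls included, the sign turned for some, with r of 0.39 for *Dnajb1* and 0.22 for *Hspd1*, and it was 0.64 for *Hspe1* and 0.49 for *Hspa1a*. Without 1203 and 1053, the libraries farthest from the median, the values for the first 5 genes were -0.72, -0.63, -0.63, -0.57, and -0.52 (n = 9). All points share library depth and tissue makeup.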
